A study of Homo sapiens with 7 samples.

Results

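The G3 library of HUES66 cells, in which Cas13d was directed at an RBFOX2 isoform (RBFOX2 id 178147 in its label), was set against the WT control library of the same experiment. The comparison used 2 of the 7 long-read libraries of the series, 1 on each side. Of 14294 genes with an Ensembl ID, the 7877 with a mean level of at least 5 TPM over the 7 libraries were compared. The rule does not look at the difference between G3 and the control. Its mean includes G3, however, so a high G3 level can bring a gene in. HUES66 is an established human embryonic stem cell line. All 7 cultures had received doxycycline at 1 µg/ml and were taken at 24 h. Every culture carries the description piggyBac (the name of a transposon used to insert transgenes), the control with the genotype WT and G3 with an RBFOX2 isoform knockdown. The labels do not say whether the control expressed a guide, which isoform the id denotes, or whether a culture was 1 clone. The other 5 G libraries (G5, G11, G12, G13 and G14) carry other RBFOX2 ids and are used here only to place G3.

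RBFOX2 is an RNA-binding protein that recognises the motif GCAUG in introns and favours or blocks inclusion of nearby exons according to its position. The gene has alternative promoters that give proteins with different first residues and the same RNA-binding domain, and in pluripotent cells it is the main member of its family. Cas13d is a nuclease that a guide RNA leads to a matching transcript, which it then cuts, so a guide that matches only some isoforms can lower those and spare the others.

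RBFOX2 lies on chromosome 22, positions 35738736 to 36028425 of GRCh38 on the minus strand. GENCODE 29 gives it a proximal first exon, near the exon that most isoforms share, and a distal first exon farther upstream. The coding parts of these first exons are shown because every later count of RBFOX2 reads turns on them. They are printed 5′ to 3′ on the gene's strand with the bases that only 1 form carries in capitals. The proximal coding part has 27 bases (chromosome 22, 35840192 to 35840218) and is joined here to the first 30 bases of the shared exon (35809780 to 35810004). The distal coding part has 186 bases (36028240 to 36028425), and the distal transcript then has an exon of 51 bases (35938847 to 35938897) before the shared exon.
proximal first exon and shared exon: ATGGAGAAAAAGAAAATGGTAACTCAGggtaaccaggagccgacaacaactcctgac
distal first exon: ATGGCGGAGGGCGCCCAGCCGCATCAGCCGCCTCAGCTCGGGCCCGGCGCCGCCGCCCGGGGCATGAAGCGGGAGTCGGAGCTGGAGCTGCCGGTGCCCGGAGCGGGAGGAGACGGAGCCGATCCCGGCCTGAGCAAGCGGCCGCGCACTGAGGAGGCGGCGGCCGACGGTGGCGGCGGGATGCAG
exon after the distal first exon and shared exon: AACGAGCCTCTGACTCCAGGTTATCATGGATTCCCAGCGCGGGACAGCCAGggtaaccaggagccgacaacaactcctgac
The lower-case stretch is the same in the first and the third sequence, so a guide placed in it would match both forms. The guides themselves are not used here.

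The 7 libraries held 16801842 reads (control) to 26678538 (G12), with 17848098 in G3. The table lists only isoforms with at least 1 control read, and these held 98.1% of the G3 reads. TPM here is a read count divided by the library total, without regard to transcript length, so levels of different genes are not compared. The 14 pluripotency genes in the table, POU5F1 among them, summed to 2754 TPM in the control, 2710 in G3 and 2097 to 2645 in the other G libraries. Listed were 2 of 5 endoderm, 3 of 4 mesendoderm and 2 of 5 trophoblast or amnion markers. A marker isoform read only in G3 could not be seen, since each listed isoform has a control read. The markers listed were low: the endoderm genes FOXA2 and GATA4 and the mesendoderm gene TBXT had 0 reads in G3. The trophoblast genes summed to 2.41 TPM in G3. The 3 neural markers found summed to 4.88 TPM in the control, 11.8 in G3 and 2.50 to 4.24 in the other G libraries. Most of this came from DCX, a microtubule-associated protein. DCX had 72 control and 207 G3 reads, or 4.29 and 11.6 TPM, above the 1.62 to 4.01 TPM of the other G libraries. The remaining neural markers were near 0. Of the fibroblast markers, COL1A1, a collagen chain, was at 16.4 TPM in the control and 30.3 in G3, and THY1, a surface protein that embryonic stem cells also carry, was at 918 and 808 TPM. The other G libraries held 1.58 to 16.7 TPM of COL1A1 and 817 to 910 TPM of THY1. G3 was thus the highest of the 7 libraries for COL1A1 and the lowest for THY1. Both together, nearly all of it THY1, summed to 934 TPM in the control, 838 in G3 and 820 to 923 in the other G libraries. The part of these markers in other results was not tested. In bulk RNA, fewer cells of a type and less RNA per cell cannot be told apart. With 1 library on each side no difference below has a replicate check, and no p-value was computed. Intervals are at 95% and cover counting error only.

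RBFOX2 itself was at 107 TPM in the control (1802 reads) and 42.1 TPM in G3 (751 reads). The other G libraries held between 55.9 TPM in G13 and 106 TPM in G14, so G3 was the lowest of the 7. G3 retained 39.2% of the control level (36.0 to 42.7%), a log2 difference of -1.34. Against the median of the 5 other G libraries the log2 difference was -1.06.

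The loss lay in the transcripts of the proximal first exon. These 60 isoforms gave 1306 control reads and 225 G3 reads, that is 77.7 and 12.6 TPM, and G3 retained 16.2% of the control level (14.02 to 18.7%). The other G libraries held 47.2 TPM (G13) to 89.7 TPM (G5) from this exon, far above G3. The 29 isoforms of the distal first exon gave 423 reads in the control and 492 in G3, or 25.2 and 27.6 TPM. That is 109% of the control, with an interval of 96.0 to 125% that includes equality. In the other G libraries the distal level ran from 3.46 TPM in G5 to 23.6 TPM in G14, so G3 had the highest distal level of the 7 libraries and the lowest proximal level. Among reads of both first exons, the proximal share was 75.5% in the control (Wilson interval 73.5 to 77.5%) and 31.4% in G3 (28.1 to 34.9%). G3 was the only library of the 7 with fewer proximal than distal reads: the proximal share in the other G libraries was 77.3 to 96.3%. The transcripts that were lower in G3 are thus the proximal ones, as the values themselves define them, since the labels do not name the isoform.

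**Figure D1:**
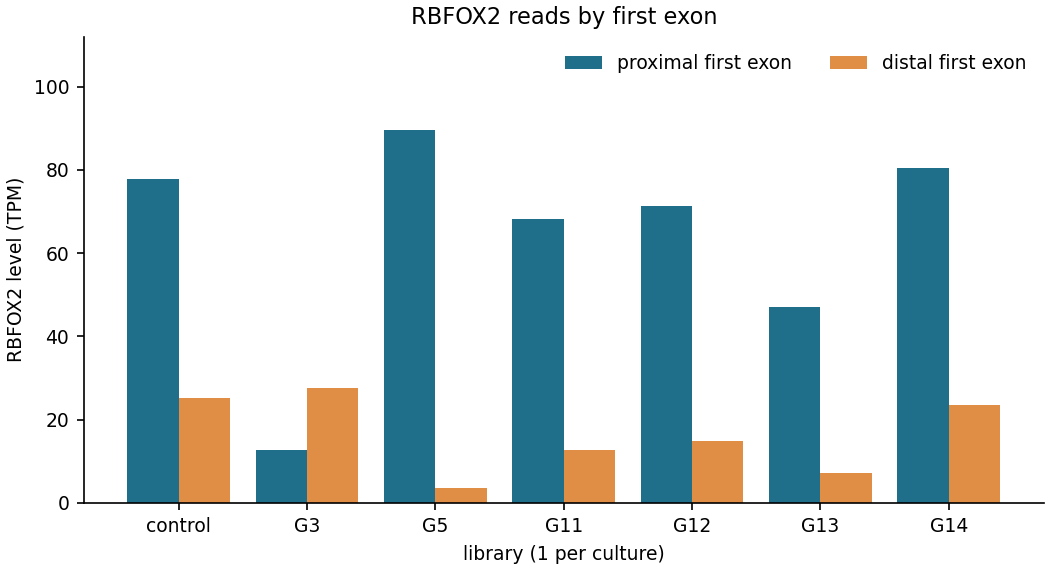
RBFOX2 level in TPM (vertical axis) from the proximal and the distal first exon in each of the 7 libraries, 1 bar per library and exon. The proximal bar drops from 77.7 TPM in the control to 12.6 in G3, while the distal bar is 25.2 in the control and 27.6 in G3.

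Reads that began at neither first exon were few. The 6 isoforms that start at the shared exon had 48 control reads and 26 G3 reads, 51.0% of the control level (30.4 to 83.9%), and 11 isoforms starting elsewhere had 25 and 8 reads. A window of 100 bases around the annotated first exons, in place of 500, gave 16.2% proximal and 107% distal, but a proximal share of 60.2% in G3 and 90.9% in the control, because many distal reads start outside the narrow window.

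Single isoforms divided by first exon in the same way. The isoforms that carry no reference ID are numbered here in order of their reads. Of the 9 RBFOX2 isoforms with at least 30 control reads, all 5 proximal isoforms were at 11.8 to 22.8% of the control and all 4 distal isoforms at 103 to 121%. Across all genes, 8.63% of the 21442 isoforms with that many control reads were at or below 50% of the control in G3. The most read proximal isoform, ENST00000416721.6, had 472 reads in the control and 59 in G3, or 28.1 and 3.31 TPM, 11.8% of the control (8.82 to 15.4%). Its level in the other G libraries ran from 5.75 TPM in G13 to 45.2 TPM in G14, so it was lowest in G3. The proximal hashed isoform 1 went from 15.5 to 2.63 TPM and ENST00000449924.6 from 13.99 to 2.24 TPM. Each of these had a lower value than G3 in 1 other G library: 2.34 TPM in G14 for hashed isoform 1 and 1.78 TPM in G11 for ENST00000449924.6. Hashed isoform 2 went from 7.14 to 1.62 TPM, with G11 lower at 0.576 TPM. The remaining proximal isoforms had few reads, such as 46 and 10 for hashed isoform 5 and 27 and 5 for ENST00000405409.6.

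Of the distal isoforms, hashed isoform 3 was the most read, with 156 control and 195 G3 reads (9.28 and 10.9 TPM), 118% of the control (94.8 to 146%). ENST00000695854.1 had 5.06 and 5.21 TPM, and hashed isoform 4 had 5.06 and 5.43 TPM. ENST00000438146.7, the isoform whose exons are printed above, had 2.26 and 2.75 TPM. The interval of each of these 4 ratios includes 100%. Of 106 RBFOX2 isoforms of any first exon, 62 had 0 reads in G3, the most read of them with 8 reads in the control. Such zeros were common in all genes: of 386982 listed isoforms, each with a control read, 173232 had a read in G3.

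**Figure D2:**
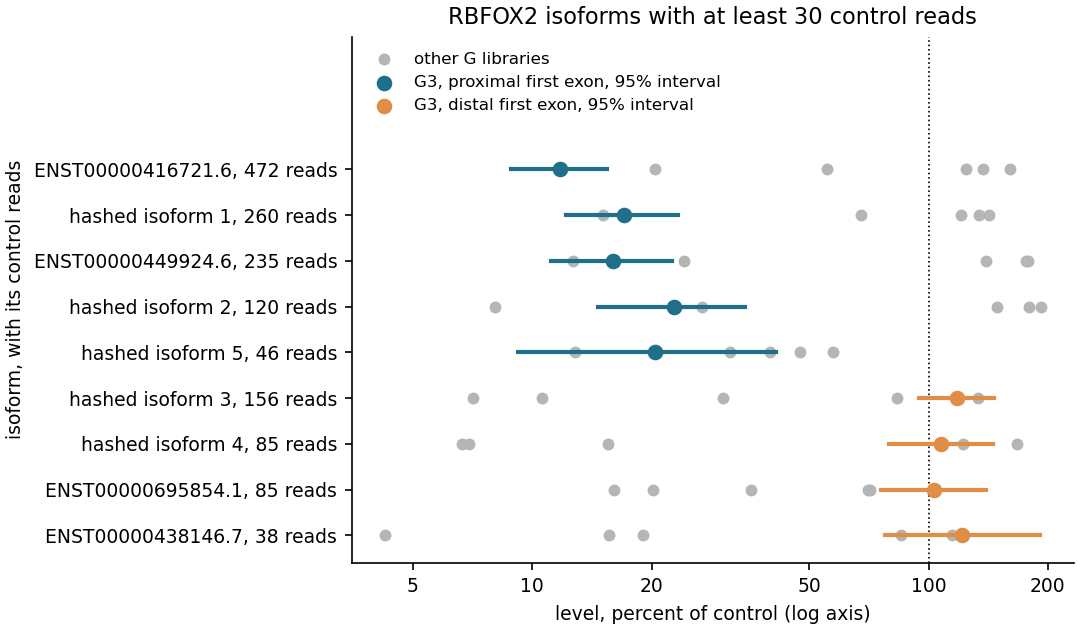
Level in percent of the control (log axis) of the 9 RBFOX2 isoforms with at least 30 control reads, with the reads in the control beside each name. Coloured points are G3 with 95% intervals, grey points are the other 5 G libraries; the proximal isoforms of G3 lie at 11.8 to 22.8% and the distal ones at 103 to 121%.

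Within each first exon group, the mix of isoforms shifted less than the groups did. The usage distance used here is the total variation distance of isoform shares, which is 0 for equal shares and 1 for no shared isoform. Among distal reads it was 0.0842 between G3 and the control, against 0.194 to 0.531 in the other G libraries. Hashed isoform 3 made up 36.9% of distal reads in the control and 39.6% in G3, and ENST00000695854.1 20.1% and 18.9%. Each pair of Wilson intervals overlaps. Among proximal reads the distance was 0.156 in G3 and 0.109 (G5) to 0.459 (G13) in the others. There ENST00000416721.6 held 36.1% in the control (33.6 to 38.8%) and 26.2% in G3 (20.9 to 32.3%), a pair of intervals that does not overlap, while ENST00000449924.6 held 18.0% and 17.8%. With 225 proximal reads in G3, smaller shifts were not detectable at this depth.

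The paralogue RBFOX1 had 8 reads in the control and 0 in G3, where 3 reads would be 0.168 TPM. The LASR complex is the assembly of RNA-binding proteins with which RBFOX proteins act on splicing. None of its 7 compared entries, which include MATR3 under a pair of Ensembl IDs, was 2-fold from the control, and their median log2 difference was 0.04. HNRNPC, a binder of uridine-rich RNA, was lowest at -0.20 (1099 TPM in the control, 957 in G3). DDX5, an RNA helicase, was highest at 0.51 (774 and 1103 TPM), above its 491 to 925 TPM in the other G libraries. HNRNPM was at -0.07, the weaker MATR3 entry at 0.04, HNRNPH1 at 0.29 and the main MATR3 entry at 0.34. The members of the complex thus differed from the control by less than 1.5-fold in each direction.

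The RBFOX target list names genes with exons known to respond to RBFOX proteins. Of its 12 compared genes, 1 was at least 2-fold higher and none lower, where 1.89% of all 7877 genes were higher and 5.14% lower. The median log2 difference was 0.36, against 0.12 for all genes. The listed genes were long, with a median transcript length of 4743 bases against 2603 for all genes with a length. With a trend on length and GC content removed, the medians were 0.28 for the list and 0.14 for all genes. CLSTN1, a calcium-binding synaptic membrane protein, was at 18.8 TPM in the control and 41.0 in G3, with 0.790 to 17.2 TPM in the other G libraries. FGFR1, a fibroblast growth factor receptor, was at 48.3 and 92.1 TPM, and at 9.39 to 30.1 in the others. In both genes G3 was the highest library and the control the second. PLOD2, a collagen lysyl hydroxylase, was at a log2 difference of 0.69, ENAH, an actin regulator, at 0.58, and CTTN, a cortical actin-binding protein, at 0.51. PICALM was at 0.44, MAP3K7 at 0.27, ECT2 at 0.16 and PTBP2 at 0.11. ACTN1 at -0.08, MYH10 at -0.09 and EPB41 at -0.21 were on the lower side.

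The isoform usage of the same targets in G3 was compared with the control. Their median distance from the control was 0.103, against 0.061 for all 7558 genes with at least 100 reads in both libraries, and 0.133 (G12) to 0.221 (G13) for the targets in the other G libraries. At least 0.2 was reached by 2 of the 12, EPB41 (0.260) and PICALM (0.215), while 8.75% of all genes reached it. Exons that these genes are known for can be read from pairs of annotated isoforms. PLOD2 has an alternative exon of 63 bases (chromosome 3, 146077862 to 146077924): the isoform that carries it, ENST00000282903.10, held 11.4% of PLOD2 reads in the control (8.12 to 15.7%) and 14.3% in G3 (11.5 to 17.8%). The PLOD2 isoform without it, ENST00000360060.7, held 79.9% and 78.7%. For ECT2, ENST00000392692.8, which has an exon of 93 bases (chromosome 3, 172755483 to 172755575), held 66.5% and 64.6%. The ECT2 isoform that lacks this exon, ENST00000232458.9, held 10.1% (8.35 to 12.2%) and 14.6% (12.7 to 16.9%), and up to 31.0% in the other libraries. CTTN isoform ENST00000301843.13, with an exon of 111 bases (chromosome 11, 70421470 to 70421580), held 14.5% and 18.6%, with overlapping intervals of 11.8 to 17.8% and 16.1 to 21.4%. The shares of these PLOD2 and CTTN isoforms were thus not distinguishable between G3 and the control at this depth, while the intervals of the shorter ECT2 isoform do not overlap. In each target, the isoform with the largest difference in share was picked for that difference, so its intervals describe it and are not a test. The part of all genes that would pass the same check was not computed. Of the 12 targets, 4 more had such an isoform with intervals that do not overlap. These were PTBP2 (ENST00000609116.5, 16.6% in the control and 28.0% in G3), FGFR1 (ENST00000397091.9, 27.5 and 35.8%), CLSTN1 (an isoform without a reference ID, 57.3 and 67.1%) and ACTN1 (ENST00000193403.10, 85.0 and 89.1%). For PTBP2, a splicing repressor of neural exons, G3 was above the 24.8% that was the highest of the other 6 libraries, whereas for FGFR1, CLSTN1, ACTN1 and ECT2 another library was higher than G3.

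Over all genes, 149 of 7877 (1.89%) were at least 2-fold higher in G3 than in the control and 405 (5.14%) at least 2-fold lower. The lower genes were short: their median transcript length was 990 bases, against 2603 for all genes with a length, and 346 of them were among the 1548 shortest genes (207 to 1615 bases). In that shortest of 5 equal bins of length, 22.4% were at least 2-fold lower and the median log2 difference was -0.53. In each of the other 4 bins under 1% were lower. Against the other 5 G libraries, the shortest bin of G3 had a median of 0.10, so in short genes G3 lay near those libraries and below the control. With a trend on length and GC content removed, 68 genes were at least 2-fold lower. Against the median of the other 5 G libraries, 54 were at least 2-fold lower and 918 higher.

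Among the 10 largest falls on the log2(TPM + 0.5) scale, IGFBP2 came first, although RABGGTB retained a smaller part of its control level (6.85%, 4.60 to 9.87%). IGFBP2, a secreted binding protein of insulin-like growth factors (chromosome 2, 216632828 to 216664436), was at 3823 TPM in the control and 311 in G3, from 64230 and 5551 reads. The other G libraries held 1475 TPM (G5), 2538 (G11), 4363 (G12), 3592 (G13) and 4701 (G14). G3 was below all of them, at 8.14% of the control (7.91 to 8.36%), a log2 difference of -3.62, and its main isoform, ENST00000233809.9, was at 8.12%.

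RABGGTB, a subunit of the enzyme that attaches geranylgeranyl groups to Rab proteins, was at 25.4 and 1.74 TPM, but G14 was as low at 1.62 TPM. PSMC3IP, a cofactor of meiotic recombinases, was at 82.0 TPM in the control and 10.1 in G3, with 14.3 to 95.5 in the others. XPOT, the exportin of tRNA, was at 88.7 and 16.5 TPM, with 16.5 in G14 as well. These 3 genes were low in G14 too, which shares the control with G3 but carries another RBFOX2 id. In G5, RABGGTB was at 6.56 and PSMC3IP at 20.8 TPM. DENR, a translation reinitiation factor, was at 16.0 TPM in the control and 2.75 in G3, from 268 and 49 reads. G3 was below the 5.39 to 22.5 TPM of the other G libraries, but DENR was low in G14 (5.39 TPM) and G5 (7.15 TPM) too. CKS2, a subunit of cyclin-dependent kinases, was at 169 and 39.2 TPM. The retinoic acid carrier CRABP2 was at 49.4 and 14.2 TPM, the small heat shock protein HSPB1 at 21.2 and 5.88, and the GTP cyclohydrolase regulator GCHFR at 21.7 and 6.16. For CKS2, CRABP2, HSPB1 and GCHFR the log2 difference was between -2.09 and -1.73 against the control, and between -0.65 and -0.33 against the median of the other G libraries. MIX23, a mitochondrial protein, was lower than in the control (34.4 and 10.1 TPM) but log2 0.40 above that median.

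SFPQ led the largest rises. SFPQ, a splicing and paraspeckle protein, was at 11.1 TPM in the control and 79.9 in G3, from 187 and 1426 reads. The other G libraries held 4.83 (G5), 1.15 (G11), 0.450 (G12), 0.790 (G13) and 4.01 TPM (G14) of SFPQ. G3 was at 718% of the control (616 to 841%), and G3 and the control were the 2 highest libraries. KDM1A, a histone lysine demethylase, was at 21.3 and 97.5 TPM, with 9.34 to 34.9 in the others. COL18A1, a basement membrane collagen, was at 22.4 and 98.0 TPM, with 6.40 TPM in G5 and 0.0439 to 0.412 in the remaining G libraries. LEMD2, an inner nuclear membrane protein, was at 11.7 and 51.2 TPM, and CHPT1, a phosphatidylcholine-synthesising enzyme, at 11.7 and 46.4 TPM. XRN2, a nuclear exoribonuclease, was at 18.8 and 69.8 TPM, with 31.4 to 53.3 in the others. These 6 genes were highest in G3 of all 7 libraries. Among them, SFPQ, COL18A1, LEMD2 and CHPT1 reached the mean of 10 TPM required of named rises only through G3.

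In 3 other large rises, G3 lay within or below the range of the libraries that carry other ids. CTR9, a PAF1 complex subunit, was at 1.67 TPM in the control and 8.07 in G3, but at 11.95 to 17.9 in the other G libraries. TOPORS, an E3 ligase, was at 2.68 and 11.7 TPM, with 20.4 to 35.9 in the others. The cohesin subunit SMC3 was at 6.67 and 25.0 TPM, with 20.3 to 42.5 in the others. Against the median of the other G libraries the log2 difference was -0.60 for CTR9 and -0.95 for TOPORS, the reverse of the difference from the control, and 0.04 for SMC3. In each of the 9 rises and 10 falls described, the gene's main isoform moved with the gene, at 342 to 1003% of the control among the rises and 6.97 to 29.2% among the falls.

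**Figure D3:**
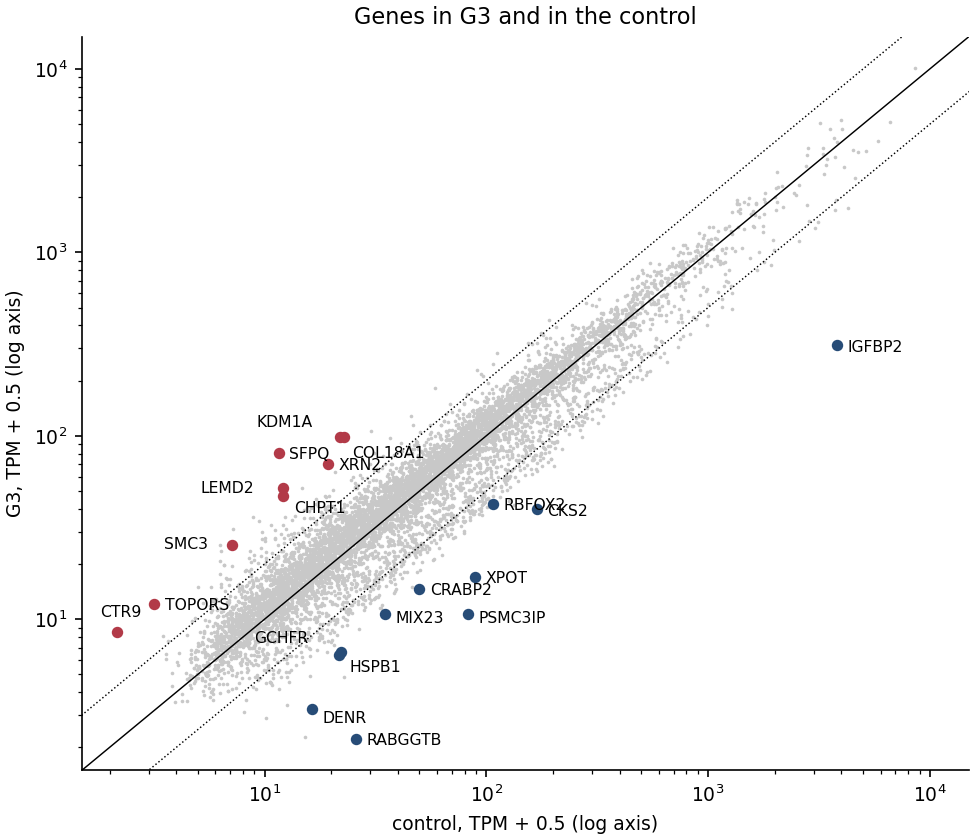
Level of each compared gene in the control (horizontal axis) and in G3 (vertical axis), as TPM + 0.5 on log axes; the solid line marks equality and the dotted lines 2-fold. Red points are 9 of the largest rises and blue points the 10 largest falls and RBFOX2; IGFBP2, at 3823 and 311 TPM, lies far below the line among abundant genes.

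**Figure D4:**
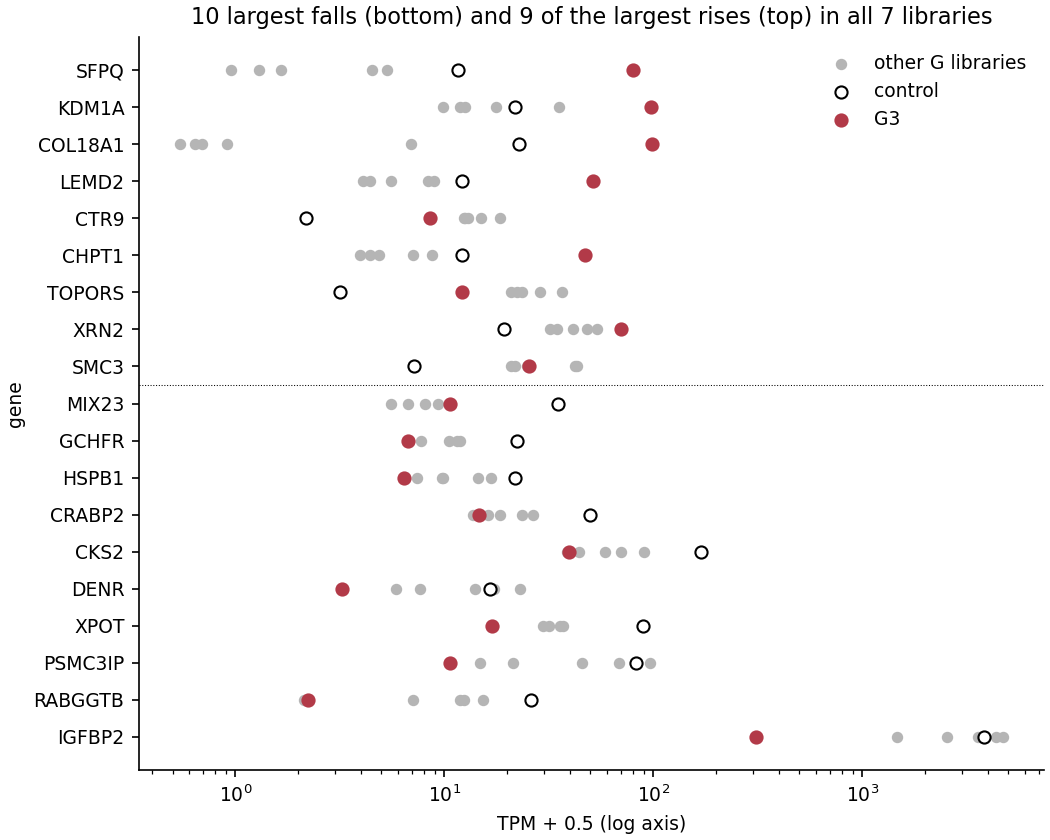
Level (TPM + 0.5, log axis) of 9 of the largest rises and the 10 largest falls in G3 (red), the control (open circles) and the other 5 G libraries (grey). SFPQ, KDM1A, COL18A1, LEMD2, CHPT1 and XRN2 are highest in G3, while for CTR9 and TOPORS the control is lowest and G3 lies between it and the other G libraries.

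Placing G3 among all 7 libraries gave a different set from the comparison with the control alone. G3 was above the other 6 libraries and at least 2-fold from their median in 730 genes (9.27%), and below them in the same way in 35 genes (0.444%). The limit of 5 TPM is on a mean that includes G3, so genes high in G3 pass it more readily than genes low in G3. Its part in these counts was not tested. Under median-of-ratios scaling 67 genes were below. The 730 genes had a median GC content of 59.3%, against 47.9% for all genes, and their median log2 difference from the control alone was 0.64, or 0.43 with the trend on length and GC content removed. In the highest of 5 equal bins of GC content the median was 0.21 against the control and 0.65 against the other 5 G libraries. Among genes with a mean of at least 10 TPM, the 8 with the largest log2 gap from G3 down to the highest of the other 6 were SFPQ, COL18A1, LEMD2, CHPT1, KDM1A, DNM2, KHDRBS1 and AKAP17A. This mean includes G3 too: without G3, only KDM1A and KHDRBS1 of the 8 would reach 10 TPM on average. SFPQ and COL18A1 would not reach even 5 TPM. The 8 genes were chosen for G3 being above all other libraries, so that place is a description. DNM2, a dynamin of endocytosis, was at 14.2 TPM in the control, 51.7 in G3 and 1.93 to 13.9 in the others. KHDRBS1 (Sam68), a signalling-regulated RNA-binding protein, was at 45.4, 127 and 11.6 to 42.8 TPM in the same order. AKAP17A, a kinase-anchoring protein linked to splicing, was at 14.6, 39.1 and 4.30 to 14.03 TPM.

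With the same limit, the 8 genes with the largest log2 gap from G3 up to the lowest of the other 6 were IGFBP2, DENR, HESX1, SERPINF1, FAR1, CALM2, STC1 and ENSG00000255292, which has no symbol in the name table used. HESX1, a homeobox transcription factor, was at 169 TPM in the control and 70.9 in G3, with 113 to 181 in the other G libraries, from 2833 control and 1265 G3 reads. SERPINF1, a secreted serpin, was at 19.3 and 9.30 TPM, and 15.3 to 25.9 in the others. CALM2, a calmodulin gene, was at 4587 and 2540 TPM, with 3938 to 6286 in the other G libraries. Its log2 gap to the median of the other 6 libraries was -0.90, so it is not among the 35. FAR1, a fatty acyl-CoA reductase, was at 60.6 and 32.1 TPM, and the secreted hormone STC1 at 19.7 and 11.7 TPM. These genes were chosen for G3 being below all other libraries, so that place is a description.

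Lists of genes for the tissue and the treatment are read against the shares of all genes, 1.89% at least 2-fold higher and 5.14% at least 2-fold lower. Of 13 compared pluripotency genes 1 was at least 2-fold higher and none lower, with a median log2 difference of 0.14. L1TD1, an RNA-binding protein of pluripotent cells, was at 18.2 TPM in the control and 39.4 in G3. NANOG, a core pluripotency factor, was at 10.0 and 4.82 TPM (3.49 to 5.54 in the others), while POU5F1 was at 915 and 588 TPM and DPPA4 at 745 and 866 TPM. Of 32 other splicing regulators, 3 were at least 2-fold higher and none lower, with a median of 0.23 and TRA2B lowest at -0.35 (442 and 345 TPM). SFPQ, 1 of these 3, passed the limit of 5 TPM only because of G3, so that count depends in part on the value compared. All 6 compared nonsense-mediated decay genes were higher, 1 of them at least 2-fold, with the highest median of the lists of 3 or more genes, 0.49. That 1 gene was UPF3B, an exon junction complex reader, at 5.77 and 20.3 TPM and at 0.658 to 6.80 TPM in the other G libraries. Its mean of 5.45 TPM passed the limit of 5 TPM only because of G3, so its entry depends on the value compared.

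In the 12 genes of the integrated stress response none was 2-fold away and the median was 0.21, with the transcription factor ATF4 at 80.2 and 55.4 TPM and PPP1R15A, a phosphatase subunit, at 23.4 and 36.3 TPM. Among 11 p53 targets 1 was at least 2-fold lower, the ribonucleotide reductase subunit RRM2B (38.2 and 17.6 TPM), and BBC3, a pro-apoptotic protein, was at 15.5 and 24.9 TPM. Of 5 interferon response genes 1 was lower, ISG15, a ubiquitin-like protein, at 10.3 and 3.87 TPM. All 8 chaperonin subunits were slightly higher, with a median of 0.22 and CCT6A highest at 0.79 (299 and 516 TPM). Of 11 heat shock genes 2 were at least 2-fold lower (18.2%) and the median was 0.37, and DNAJA1, a co-chaperone, was at 545 and 874 TPM. In mitosis genes 0 of 22 were 2-fold away, and in DNA replication 1 of 23 was higher (CDT1, a licensing factor, 25.0 and 51.4 TPM) and 1 lower (RPA3, 38.4 and 15.1 TPM). Of 17 cholesterol synthesis genes 1 was lower, PMVK, a mevalonate pathway kinase (41.1 and 16.2 TPM), and SQLE, squalene epoxidase, was at 153 and 276 TPM. In glycolysis 0 of 14 were 2-fold away. The cytoskeleton list had 1 of 24 genes higher, FLNA, an actin crosslinker (24.0 and 56.8 TPM, and 0.0439 to 17.2 in the others). In the same list 5 were lower (20.8%), PFN1, profilin, being the lowest (4290.2 and 1751 TPM, and 1261 to 2447 in the others). Against the median of the other G libraries PFN1 was at log2 -0.0004. RRM2B (14.8 to 23.1 TPM), ISG15 (2.44 to 7.63), RPA3 (15.8 to 27.8) and PMVK (9.69 to 18.3) were likewise below the control in every other G library.

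Lists of short genes were lower in G3 and also in every other G library against the same control library. The 69 cytosolic ribosomal protein genes had a median log2 difference of -0.76, with 14 at least 2-fold lower, and medians of -1.35 to -0.75 in the other G libraries. RPL8 was at 988 TPM in the control, 399 in G3 and 243 to 474 in the others. The 74 mitochondrial ribosomal protein genes had a median of -0.85 with 21 lower, and the 69 nuclear-encoded respiratory chain genes -0.99 with 33 lower. NDUFA13, a complex I subunit, was at 56.8 and 20.6 TPM. With the trend on length and GC content removed, these 3 medians were -0.00, -0.16 and -0.05. The 30 proteasome genes had a median of -0.41, with 9 lower. PSMB4, a core particle subunit, was at 201 TPM in the control and 68.0 in G3, below the 86.1 to 196 TPM of the other G libraries. Of the remaining lists, 239 ZNF zinc finger genes had a median of 0.14 with 1 higher and 1 lower, and 136 solute carriers a median of 0.17 with 1 higher. The 6 histone genes had a median of -0.19 with 1 lower, the 3 snoRNA host genes -0.66 with 1 lower, and the 3 immediate early genes 0.38 with none 2-fold away. Each comparison shares the control library, so the direction in 6 libraries is not 6 separate observations.

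**Figure D5:**
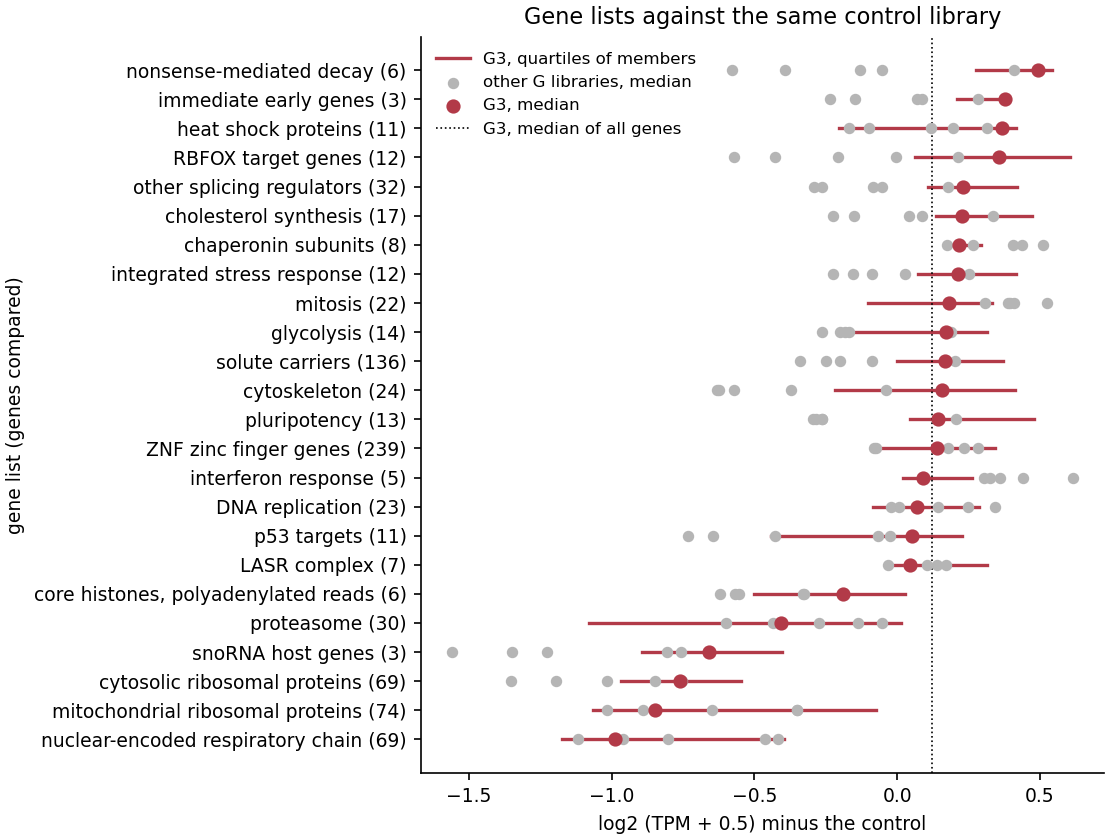
Median log2 difference from the control of each gene list with at least 3 compared genes in G3 (red points, with the quartiles of its members as lines) and in the other 5 G libraries (grey), all against the same control library. The dotted line is the median of all genes in G3, 0.12; among these lists only the ribosomal, respiratory chain, proteasome, snoRNA host and histone lists have medians under 0 in G3.

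Isoform usage differed from the control by at least 0.2 in 661 of 7558 genes, and 107 genes reached this when isoforms under 1 TPM were left out. RBFOX2 had a distance of 0.468, and 0.458 without the rare isoforms. RBFOX2 and the 7 genes described next had the largest distances among genes with a mean of at least 10 TPM whose leading isoform in G3 had a share outside the other 6 libraries. Distances from the control in the other G libraries reached 0.477 for RBFOX2 (G13), 0.621 for TRMT2B, 0.599 for LRCH3, 0.497 for ALG13 and 0.454 for NICN1, each above G3. They reached only 0.126 for ACTG1, 0.258 for DNMT1 and 0.272 for DEAF1, below G3. ACTG1, gamma actin, was at 3199 TPM in the control and 5049 in G3. Its isoform ENST00000573283.7 held 32.4% of reads in the control and 80.2% in G3 (79.9 to 80.4%), against 20.2 to 33.9% in the other 6 libraries. ENST00000576544.6 held 64.3% and 17.3%, so these isoforms exchanged places. In GENCODE 29 they differ at the 3′ end of ACTG1 on chromosome 17, where the first has 1 unbroken exon of 863 bases (81509971 to 81510833). The second has exons of 317 bases (81510013 to 81510329) and 355 bases (81510479 to 81510833) in its place. Their first exons differ as well, with 66 and 58 bases. The listed isoforms run past these annotated 3′ ends, to 81509807 and 81509783. The smaller count of either isoform in these libraries was 15550 reads, so counting error was small beside the difference.

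DNMT1, the maintenance DNA methyltransferase, had a distance of 0.464. Its main isoform without a reference ID held 53.1% of reads in the control and 26.8% in G3 (44.4 to 64.3% in the other 6 libraries), and ENST00000340748.8 held 3.87% and 24.9% (up to 16.8% in the others). For DEAF1, a transcription factor, ENST00000382409.4 held 36.4% of 324 reads in the control and 76.0% of 732 reads in G3, above the 51.6% that was the highest of the other 6. ALG13, part of the enzyme that adds the second sugar in N-glycan assembly, had its long isoform ENST00000394780.8 at 17.4% in the control and 41.4% in G3, and its short isoform ENST00000371979.7 at 19.5% and 5.17%. For ALG13 other G libraries reached 37.5% and 2.70%, close to G3. TRMT2B (0.588), LRCH3 (0.522) and NICN1 (0.435), a tRNA methyltransferase gene, a leucine-rich repeat gene and a nicolin gene, had distances that rest on many isoforms of few reads. None of these 3 kept 100 reads in both libraries once isoforms under 1 TPM were left out, so no distance was available there.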

How the data were processed

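Per the labels' protocols, polyadenylated RNA was turned into cDNA, joined into 8-fold arrays (MAS-Seq) and sequenced on a PacBio instrument. The submitters' processing notes name minimap2 2.17 and GRCh38. The isoform caller and its annotation are not given in the sources used here. Per the file headers, the authors deposited, for 386982 isoforms and each library, a count of full-length reads with its TPM. Empty cells were read as 0. The deposited TPM equalled the count over a library total, with no length term, and the totals were recovered from both columns.

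Isoforms were summed by Ensembl gene ID, and genes with a mean of at least 5 TPM were compared as log2(TPM + 0.5). Intervals at 95% are exact (Clopper-Pearson) for ratios of reads and Wilson for shares. They cover counting error only, since each side has 1 library. The reads carry no molecular identifiers, so the intervals take each read as a separate molecule. First exon groups took isoforms starting within 500 bases of a GENCODE 29 first exon. The length and GC content of 7736 genes came from GENCODE 29 transcripts. Named genes were RBFOX2 and its isoforms with at least 5% of its reads; the 10 largest rises and falls at a mean of 10 TPM or more; the 8 farthest above and below the other 6 libraries; members of the lists; and 8 genes by usage distance. Genes that meet this rule but are not reported here were left out of the text and the figures. The members and lists were chosen with earlier results of these data known. Scripts used Python 3.11.15, pandas 2.3.3, NumPy 2.4.6, SciPy 1.17.1 and matplotlib 3.10.9, and were tested on simulated data.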

Additional observations from a re-analysis of the deposited data

How the results depend on the processing

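Each group has 1 library. No paired analysis was possible because each group has 1 library, and no replicate could be left out. A value is taken as moved when it leaves its counting interval, a count when it changes by over 1.5 times, and a list median when it changes sign or by over 0.2. The RBFOX2 log2 difference of -1.34 was -1.06 against the median of the other 5 G libraries, -1.03 with the trend on length and GC content removed and -1.86 from reference isoforms alone. Reference isoforms alone gave 13.2% of the control for the proximal exon and proximal shares of 42.7% in G3 and 86.0% in the control; the window of 100 bases gave 60.2% and 90.9%. Genes at least 2-fold higher numbered 260 at a mean of at least 1 TPM, 50 at 20 TPM, 918 against the other G libraries, 287 from reference isoforms, 234 from isoforms of at least 1 TPM and 686 at 1.5-fold. Genes at least 2-fold lower numbered 269 at 20 TPM, 54 against the other G libraries, 68 with the trend removed and 971 at 1.5-fold. Genes above the other 6 libraries numbered 1130 at 1 TPM, 267 at 20 TPM and 1403 at 1.5-fold, and genes below them 53, 23 and 273, or 67 under median-of-ratios scaling. Usage distances of at least 0.2 numbered 107 among isoforms of at least 1 TPM and 217 among genes of at least 300 reads. Against the other G libraries, list medians were 0.26 (p53), -0.27 (interferon), 0.16 (heat shock), -0.16 (chaperonin), -0.14 (replication), -0.32 (mitosis), 0.70 (nonsense-mediated decay), -0.15 (proteasome), 0.095 (snoRNA hosts), 0.25 (cytosolic ribosome), 0.023 (mitochondrial ribosome), -0.13 (respiratory chain) and 0.19 (histones). With the trend removed they were 0.26 (nonsense-mediated decay), -0.054 (proteasome), -0.0033 (cytosolic ribosome), -0.16 (mitochondrial ribosome), -0.054 (respiratory chain) and 0.15 (histones). The LASR median was 0.40 from reference isoforms. Against the other G libraries the log2 difference changed sign in 9 named genes that were at least 2-fold from the control and in 16 that were not. The 9 were CTR9 (-0.60), TOPORS (-0.95), MIX23 (0.40), PMVK (0.036), SNHG3 (0.095), RPL8 (0.15), ZNF814 (0.11), H2AZ1 (0.15) and TRMT2B (0.0065). TRMT2B was also at 0.58 from reference isoforms and 0.46 from isoforms of at least 1 TPM, and ISG15 at 0.077 with the trend removed. The cause of these changes was not tested. A pseudocount of 0.1 or 1 changed none of the counts by over 1.5 times and no list median in sign. Depth leaves 225 proximal RBFOX2 reads in G3.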
